A study of Mus musculus with 8 samples.

Results

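The growth hormone and prolactin receptor pathway was followed in mouse islets through 10 genes, chosen by symbol from the 53012 genes of the count table. They are the receptors Prlr and Ghr, the transcription factors Stat5a and Stat5b, the feedback inhibitors Cish, Socs2 and Socs3, and the islet response genes Tph1, Tph2 and Ehhadh. All 10 genes were found in the table, and 9 of them had enough counts to be among the 15474 genes tested. Tph1 did not.

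Growth hormone and prolactin bind single-pass receptors that activate the kinase JAK2, which phosphorylates STAT5A and STAT5B. Phosphorylated STAT5 enters the nucleus and activates genes such as Cish and Socs2, whose proteins dampen the receptor signal. In the islet the prolactin receptor is known from pregnancy, when lactogens drive β-cell growth and induce the serotonin-synthesizing enzymes Tph1 and Tph2.

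Bulk RNA-seq was done on islets of 8 mice aged 17 months, with 4 mice in each group and a separate library per mouse. The βIgf1rKD mice (M145, M146, M149 and M150) were Ins1-CreERT2 +/- and Igf1r flox/flox, with LoxP sites around exon 3 of Igf1r. They received 5 daily injections of tamoxifen at 0.075 mg/g, and islets were isolated 7 days after the last one. The βIgf1r mice (M148, M151, M152 and M153) were Ins1-CreERT2 -/- and Igf1r flox/flox and received corn oil. Both groups thus carried the floxed allele, while Cre and tamoxifen were present in the βIgf1rKD mice alone. In these libraries loss of Igf1r, Cre and tamoxifen therefore cannot be told apart. The paper also gave tamoxifen or vehicle to male non-transgenic mice and reported no significant difference in key β-cell genes by quantitative PCR. That control covered selected genes and no Cre. The genotype names Ins1, whereas the methods describe a Cre under a rat insulin promoter. Some β-cell Cre transgenes carry a human growth hormone minigene, whose product can bind the mouse prolactin receptor and which counts of mouse genes would not show. Whether this line carries one is not given in the sources used here. Both sexes were used in each group, and the labels do not give the sex of a mouse.

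Total counts were 21633925 to 31202015 in βIgf1r and 23825864 to 42391106 in βIgf1rKD mice, and all values below are CPM, counts scaled to the library size with TMM factors. Igf1r, the targeted gene, was at 46.8, 48, 60.9 and 58.7 CPM in βIgf1r mice and at 46.9, 50.2, 57.9 and 47.8 CPM in βIgf1rKD mice. The groups overlapped, with a log2 fold change of -0.08 (SE 0.11) and an exact permutation p of 0.543, and a count over the whole gene does not isolate exon 3. The paper reported lower Igf1r mRNA by quantitative PCR and lower IGF1R protein by Western blot in βIgf1rKD islets. Those measurements used mice over other age ranges. Islet markers were abundant: the 10 β-cell markers summed to 127748 to 203501 CPM over the 8 mice. Ins1 was at 31089 to 50373 CPM in βIgf1r and at 19119 to 28541 CPM in βIgf1rKD mice, with an unadjusted p of 0.0204 and an adjusted p of 0.987 (edgeR's quasi-likelihood test). Its groups did not overlap, as in 2.22% of all genes tested. It was the only 1 of the 10 markers with an unadjusted p under 0.05, where 1.89% of all genes tested were lower. Ins2 had a log2 fold change of -0.08 (SE 0.41). Of the 10 markers 4 had a positive and 6 a negative log2 fold change, with a median of -0.07. Only the βIgf1rKD mice carried the Cre allele named after Ins1, and its part in the Ins1 level was not tested. Acinar markers took 2.01% to 16.8% of the counts of a library. The RNA of Xist, which silences 1 X chromosome in female cells, was at 270 to 411 CPM in 1 βIgf1r mouse (M151) and 3 βIgf1rKD mice (M145, M146 and M150), and at 1.22 to 6.71 CPM in the other 4 mice. The Y-linked genes Ddx3y, Eif2s3y, Kdm5d and Uty went the other way. Ddx3y was at 0 to 0.715 CPM in the 4 mice with high Xist and at 37.9 to 46 CPM in the other 4. By Xist and these genes, the 1 βIgf1r and 3 βIgf1rKD mice with high Xist were female and the other 4 mice male. Sex thus differed between the groups, and group differences cannot be fully told apart from it. Results that follow Xist are given beside it.

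After adjustment over all genes (edgeR), no gene had a p under 0.05, so none of the 10 genes passed the test. At an unadjusted p under 0.05 there were 637 genes, 4.12% of those tested, of which 345 genes (2.23%) were higher in βIgf1rKD islets. DESeq2 gave 8 genes and limma-voom 1 gene with an adjusted p under 0.05, none of them among the 10 genes. In bulk RNA, fewer cells of a type and less RNA per cell cannot be told apart.

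Per kilobase of exon, the receptors and Stat5b were the most abundant of the 10 genes. Over the 8 mice Ghr averaged 16.6 RPKM (14 to 19.2), Prlr 15.7 RPKM (9.08 to 26.4) and Stat5b 13 RPKM (11.5 to 14.3), and these ranges overlapped. Ehhadh followed at 5.31 RPKM (4.58 to 6.64), below every Stat5b value but overlapping Socs3 and Cish. Socs3 at 2.45 RPKM, Cish at 2.34 RPKM, Socs2 at 2.16 RPKM and Stat5a at 2.02 RPKM could not be ordered, since each range overlapped the next. Tph2 at 0.408 RPKM and Tph1 at 0.0356 RPKM came last, below every Stat5a value and with overlapping ranges. With the length of the longest transcript in place of all exons, the first 4 and last 2 genes kept this order, with Ghr at 35.9 RPKM and Prlr at 24.4 RPKM.

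Prlr encodes the prolactin receptor and spans bases 10177238 to 10349180 of chromosome 15, plus strand (GENCODE M21, GRCm38). Its level was 181, 247, 144 and 222 CPM in βIgf1r mice M148, M151, M152 and M153, and 293, 405, 139 and 298 CPM in βIgf1rKD mice M145, M146, M149 and M150. Among the βIgf1rKD mice, 3 lay above every βIgf1r mouse and mouse M149 lay below all of them. The means were 199 ± 45.4 and 284 ± 109 CPM (SD, n = 4 each), with a log2 fold change of 0.51 (SE 0.29, 95% interval -0.14 to 1.17). The adjusted p was 0.987 by edgeR. A two-sided exact permutation test, which has 70 ways to assign the mice and a smallest p of 0.0286, gave 0.257. Without mouse M149 the log2 fold change was 0.74 with an unadjusted p of 0.00523 and an adjusted p of 1 (edgeR). By Xist, mouse M149 was the only male βIgf1rKD mouse, so leaving it out left females alone in that group. With Xist as a covariate over all 8 mice the log2 fold change of Prlr was 0.12. Gene counts do not separate the long and short receptor forms.

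Ghr encodes the growth hormone receptor and also gives rise to the circulating growth hormone binding protein. It lies on the minus strand of chromosome 15 from 3317760 to 3583492. Its level was 158.0, 146.8, 129.8 and 173.8 CPM in βIgf1r mice and 163.0, 126.6, 151.6 and 149.6 CPM in βIgf1rKD mice. The groups overlapped throughout. The log2 fold change was -0.04 (SE 0.11, 95% interval -0.30 to 0.21), so the interval held fold changes from 0.813 to 1.16. Ghr thus varied 1.37-fold between its lowest and highest mouse, against 2.91-fold for Prlr.

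Stat5a and Stat5b are neighbouring paralogs on chromosome 11, Stat5b from 100780731 to 100850724 on the minus strand and Stat5a from 100859351 to 100885169 on the plus strand. Stat5a was at 14.3, 14.3, 15.1 and 12.5 CPM in βIgf1r mice and at 15.3, 13.4, 16.1 and 14.4 CPM in βIgf1rKD mice. Stat5b was at 75.2, 72.1, 76.6 and 63.7 CPM in βIgf1r mice and at 72, 79.3, 65.5 and 71 CPM in βIgf1rKD mice. The groups overlapped for both genes. The log2 fold change was 0.08 for Stat5a (SE 0.10, 95% interval -0.14 to 0.29) and 0.00 for Stat5b (SE 0.09, 95% interval -0.19 to 0.19). Their spread within groups was also small, with an SD of 0.12 on the log2 scale for each, lower than in most genes tested.

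The ratio of Stat5a to Stat5b counts, which does not depend on scaling between libraries, was -2.40, -2.34, -2.34 and -2.35 on the log2 scale in βIgf1r mice. It was -2.23, -2.57, -2.02 and -2.30 in βIgf1rKD mice. The βIgf1r mice lay within a narrow band and the βIgf1rKD mice on both sides of it, and the means differed by 0.08 (exact permutation p = 0.6). Of the 31-base words of the Stat5a transcripts 12.3% also occur in other genes, and 836 such words are shared with Stat5b, so some reads of each paralog may have been assigned to the other.

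Cish, Socs2 and Socs3 encode inhibitors of cytokine signalling that are themselves switched on by STAT proteins, and they had the smallest p-values of the 10 genes. The unadjusted p of these 3 genes was under 0.05, with all of them higher in βIgf1rKD islets, where 2.23% of all genes tested were. No adjusted p was under 0.05, and none of the 9 tested genes had groups that did not overlap, as 2.22% of all genes tested had.

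The promoter sequences are shown because STAT5 dimers bind the palindrome TTCNNNGAA, which is its own reverse complement and so was searched on both strands at once. RefSeq windows from 250 bases before to 50 bases after a start (GRCm38.p6) were available for 9 of the 10 genes, 15 windows in all, with no entry for Socs2. The palindrome was found in windows of Cish, Socs3 and Prlr. Of all 32851 promoter windows 8.3% held at least 1 match, and 0.457% held 2 or more. The 30-base stretches around the matches follow, 5′ to 3′ on the strand of the gene, with the palindromes in capitals.
Cish, chr9:107296654-107296683, plus strand: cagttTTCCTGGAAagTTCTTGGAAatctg
Socs3, chr11:117969502-117969531, minus strand: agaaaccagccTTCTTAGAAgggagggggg
Prlr, chr15:10223785-10223814, plus strand: ggcaaaatgagTTCTAGGAAtaagggatat
Cish held 2 palindromes, at bases 1 to 9 and 12 to 20 counted from its RefSeq start, in an exon that GENCODE M21 annotates as UTR in 1 Cish transcript, and inside the antisense gene Gm17040. The Socs3 palindrome lay at bases -154 to -146, inside 1 annotated Socs3 transcript but in no exon. The Prlr palindrome lay at bases -110 to -102 of 1 of its 3 RefSeq starts, in no exon of 7 overlapping transcripts. The parts TTC and GAA with 4 bases between them were found in no window of the 9 genes and in 6.95% of all windows. These are matches of letters, and no binding was measured.

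Cish (chromosome 9, 107296026 to 107302784, plus strand) is the classical immediate STAT5 target. Its level was 15.9, 9.6, 4.84 and 5.02 CPM in βIgf1r mice M148, M151, M152 and M153, and 23.3, 35.2, 8.05 and 18.1 CPM in βIgf1rKD mice M145, M146, M149 and M150. Again 3 βIgf1rKD mice lay above every βIgf1r mouse, while mouse M149 lay between them. The means were 8.84 ± 5.19 and 21.2 ± 11.3 CPM (SD, n = 4 each). The fold change was 2.37 (95% interval 1.13 to 4.99), which is 1.25 on the log2 scale (SE 0.48), with an unadjusted p of 0.0271 and an adjusted p of 0.987 by edgeR. The exact permutation p was 0.114. Of the 31-base words of Cish 10.4% occur in other genes, mostly the antisense genes Gm17041 and Gm17040, which had 0 to 12 counts per mouse.

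Socs2 (chromosome 10, 95385362 to 95417180, minus strand) encodes the inhibitor best known for restraining growth hormone signalling. It was at 15.9, 21.9, 10.3 and 10.7 CPM in βIgf1r mice and at 32.1, 35.4, 13.5 and 24.7 CPM in βIgf1rKD mice. The pattern was that of Cish, with mouse M149 alone among the βIgf1rKD mice inside the βIgf1r range. The fold change was 1.8 (95% interval 1.09 to 2.96), or 0.84 on the log2 scale (SE 0.32), with an unadjusted p of 0.0258 and an adjusted p of 0.987 by edgeR. The exact permutation p was 0.114. Of its 31-base words 6.55% occur in other genes, mostly the pseudogenes Gm9847 and Gm8000, which had 0 to 1 count per mouse.

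Socs3 (chromosome 11, 117966079 to 117970047, minus strand) is induced mostly through STAT3 by cytokines such as IL-6. Its level was 5.32, 6.29, 4.73 and 5.64 CPM in βIgf1r mice and 14.4, 8.82, 6.09 and 5.4 CPM in βIgf1rKD mice. Mice M145 and M146 stood above all others, while M149 and M150 lay inside the βIgf1r range. The fold change was 1.57 (95% interval 1.01 to 2.45), with an unadjusted p of 0.0466 and an adjusted p of 0.987 by edgeR. The exact permutation p was 0.171. Without mouse M145 the log2 fold change fell from 0.65 to 0.30, with an unadjusted p of 0.158.

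The unadjusted p-values of Cish and Socs2 depended on which mouse was left out (edgeR). Without mouse M145, M146, M152 or M153 the unadjusted p of Cish was 0.0527, 0.0897, 0.0688 and 0.073, and that of Socs2 was 0.0652, 0.0737, 0.0683 and 0.0714. Without mouse M149 they were 0.00557 for Cish and 0.00302 for Socs2. By Xist, that fit set female βIgf1rKD mice alone against βIgf1r mice of both sexes. Both genes also stayed under 0.05 without mouse M148, M150 or M151. The unadjusted p was then 0.00633, 0.0358 and 0.0478 for Cish and 0.0431, 0.0384 and 0.00752 for Socs2. The log2 fold changes stayed positive throughout, from 0.88 to 1.70 for Cish and from 0.67 to 1.10 for Socs2.

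**Figure D1:**
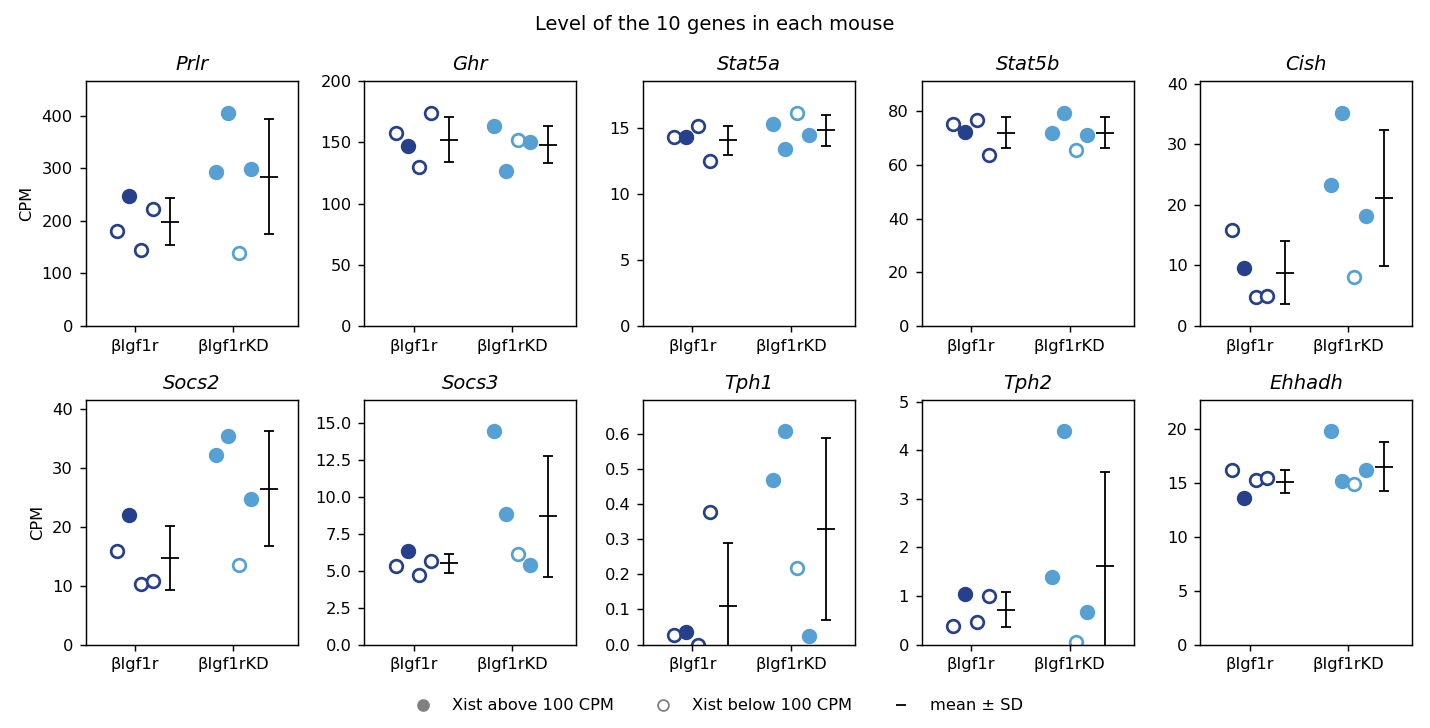
Level of each gene in CPM (linear axis from 0), with 1 point per mouse in βIgf1r (dark blue) and βIgf1rKD (light blue) islets and the mean ± SD of 4 mice beside each group, with bars cut at 0. For Prlr, Cish and Socs2 the 3 filled βIgf1rKD points (Xist above 100 CPM) lie above all βIgf1r mice and the open one, mouse M149, does not.

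Tph1 and Tph2 encode the 2 tryptophan hydroxylases that begin serotonin synthesis, and both were near the limit of detection. Tph1 (chromosome 7, 46644641 to 46672537, minus strand) had 1, 1, 0 and 8 counts in βIgf1r mice and 10, 17, 5 and 1 counts in βIgf1rKD mice. Mouse M150 had as few as the low βIgf1r mice, and the exact permutation p was 0.229. Tph1 is also made by mast cells, whose markers Cpa3, Mcpt4, Tpsb2, Cma1, Ms4a2 and Fcer1a had 0 to 17 counts per mouse and were not tested. Only 1 of 7 mast cell markers, Hdc, was tested, and its log2 fold change was -0.30.

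Tph2 (chromosome 10, 115078641 to 115185022, minus strand) had 14, 29, 13 and 21 counts in βIgf1r mice and 30, 123, 1 and 27 counts in βIgf1rKD mice. A single mouse, M146, held most of the βIgf1rKD counts, and mouse M149 had the fewest of all. The log2 fold change of 1.19 (SE 0.88, 95% interval -0.78 to 3.17) became -0.03 without mouse M146 and 0.24 with limma-voom. Its spread within groups, an SD of 1.64 on the log2 scale, exceeded that of 99.1% of the genes tested.

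Ehhadh (chromosome 16, 21761287 to 21787807, minus strand) encodes the peroxisomal bifunctional enzyme of fatty acid oxidation. Its level was 16.2, 13.6, 15.3 and 15.5 CPM in βIgf1r mice and 19.8, 15.2, 14.9 and 16.2 CPM in βIgf1rKD mice. Mouse M145 was the highest and the groups otherwise overlapped. The log2 fold change was 0.12 (SE 0.11, 95% interval -0.12 to 0.37), and the exact permutation p was 0.429.

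Of the 9 tested genes 8 had a fold change of at least 1, among them Stat5b at 0.00 on the log2 scale, against 52.1% of all genes tested with a positive value. Their median log2 fold change was 0.51, against 0.01 for all genes tested. After Tph2, the genes that varied most between mice of 1 group were the feedback inhibitors and Prlr: the SD within groups was 0.85 for Cish, 0.57 for Socs2, 0.52 for Prlr and 0.46 for Socs3 on the log2 scale. Each of these exceeded the SD of more than 84% of the genes tested, whereas Ghr at 0.17 and Ehhadh at 0.15 did not stand out.

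The levels of Prlr and Socs2 separated the mice by Xist. For Prlr the 4 mice with Xist above 100 CPM lay at 247 to 405 CPM and the other 4 at 139 to 222 CPM. For Socs2 the same sets lay at 21.9 to 35.4 CPM and at 10.3 to 15.9 CPM. This order was found for 2 of the 10 genes and for 406 genes in all, 2.62% of those tested. Cish overlapped, at 9.6 to 35.2 CPM against 4.84 to 15.9 CPM, as did the other genes.

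With the level of Xist as a covariate, a fit in which 1143 genes (7.39%) had an unadjusted p under 0.05 between the groups, the group differences of Prlr, Cish, Socs2, Socs3 and Tph2 were smaller. The log2 fold change was 0.12 for Prlr (95% interval -0.41 to 0.64), 0.68 for Cish (95% interval -0.39 to 1.75) and 0.44 for Socs3 (95% interval -0.23 to 1.12). For Tph2 it was 0.04 (95% interval -2.62 to 2.71). Socs2 kept an unadjusted p of 0.0296 with a log2 fold change of 0.42 (95% interval 0.05 to 0.78) and an adjusted p of 0.657 by edgeR. It was the only 1 of the 9 tested genes under 0.05 in that fit, in which 4.71% of all genes tested were higher in βIgf1rKD islets at that threshold. With a score of Y-linked genes in place of Xist, chosen after seeing the data, Socs2 had an unadjusted p of 0.19 by edgeR, so that this call was lost as well.

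The slope on Xist in the same fit was steepest relative to its error for Socs2. Xist was high in 4 mice and low in the other 4, so this slope mostly compared those sets. From the lowest to the highest Xist level, a span of 8.32 on the log2 scale, Socs2 differed by 1.17 (95% interval 0.74 to 1.60) on the log2 scale, with an unadjusted p of 0.000194 and an adjusted p of 0.136 by edgeR. It ranked 22 among the 15474 genes by this p. Prlr differed by 0.92 (95% interval 0.30 to 1.54), with an unadjusted p of 0.00879 and an adjusted p of 0.413. These 2 of 9 genes were set against 4.5% of all genes with a positive slope at an unadjusted p under 0.05. For Cish the interval of -0.05 to 2.62 included no change. Ghr, Stat5a, Stat5b and Ehhadh had slopes between -0.01 and 0.01 log2 units per log2 unit of Xist.

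Marker genes of α-cells also had slopes on Xist. Of the 5 α-cell markers 4 had a positive slope on Xist at an unadjusted p under 0.05, as did 4.5% of all genes tested. None of these markers was at 0 in any mouse. Their summed level was 14808 to 40166 CPM in βIgf1r and 12851 to 30421 CPM in βIgf1rKD mice. Of the 4 δ-cell markers 2 had such a slope, and of the 10 β-cell markers none had. Their part in the levels of Prlr and Socs2 was not tested.

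**Figure D2:**
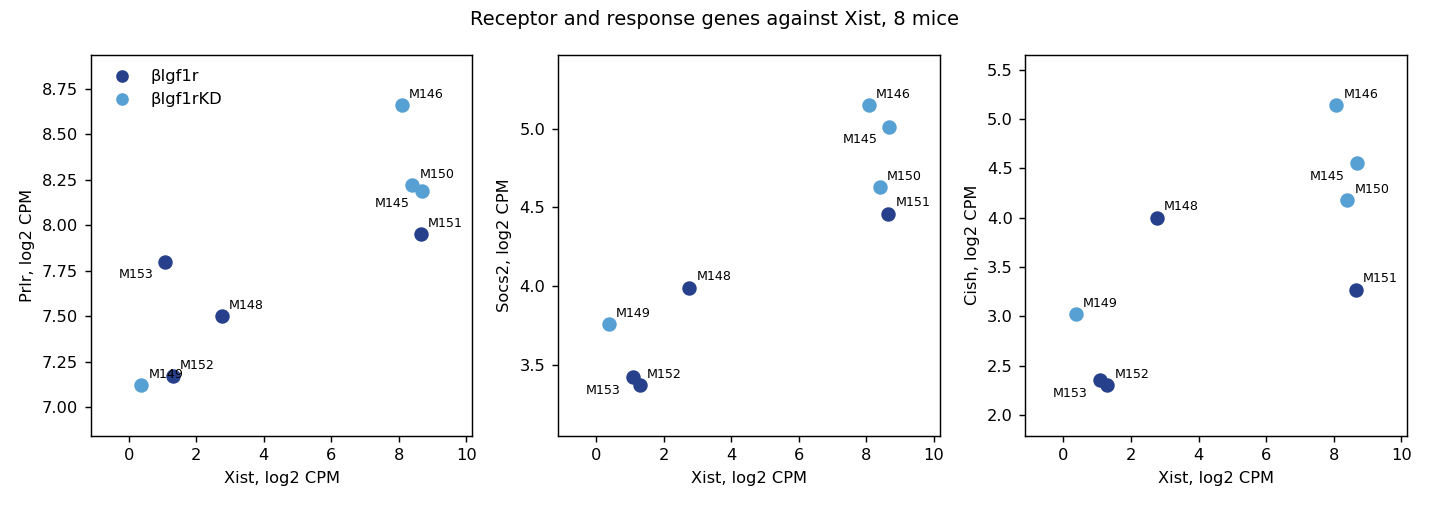
Level of Prlr, Socs2 and Cish against Xist, both in log2 CPM, for the 8 mice, labelled by number. The 4 mice at high Xist, 3 of them βIgf1rKD, lie above the other 4 for Prlr and Socs2 and overlap them for Cish, and βIgf1r mouse M151 is the lowest of the 4 in each panel.

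Within the mice of similar Xist level the order by group could be read from few animals. Among the 4 mice with high Xist, βIgf1r mouse M151 was the lowest for Prlr, Cish and Socs2. Among the 4 with low Xist, βIgf1rKD mouse M149 was the lowest for Prlr and lay between the βIgf1r mice for Cish and Socs2. Each set held 1 mouse of the other group, and no test was run within either set.

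**Figure D3:**
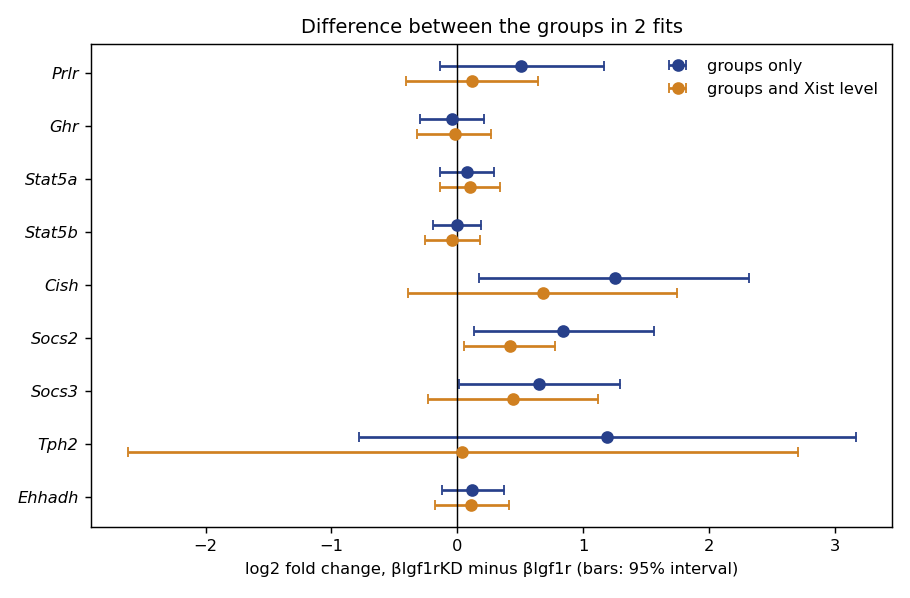
Log2 fold change of the 9 tested genes, βIgf1rKD minus βIgf1r, with its 95% interval in the fit on groups only (blue) and in the fit with Xist as a covariate (orange). The intervals of Cish, Socs2 and Socs3 lie above 0 in the first fit, and only that of Socs2 does in the second.

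Acinar cells, the digestive enzyme cells around the islets, left RNA in every library. All 12 acinar markers had a positive log2 fold change, with a median of 0.88, and none had an unadjusted p under 0.05. They summed to 16284 to 161899 CPM in βIgf1r and to 35592 to 201444 CPM in βIgf1rKD mice. With the acinar score as a covariate 390 of 15474 genes had an unadjusted p under 0.05, 212 of them higher in βIgf1rKD islets. In that fit the log2 fold change was 1.92 for Cish (unadjusted p = 0.000135 by edgeR), 1.19 for Socs2 (0.00201) and 0.72 for Prlr (0.0259). With Xist and the acinar score together 496 of 15474 genes were under 0.05, 249 of them higher. The log2 fold change was then 1.53 for Cish (unadjusted p = 0.00202 by edgeR), 0.65 for Socs2 (0.0034) and 0.27 for Prlr (0.359). Socs3 was at 0.68 with the acinar score (unadjusted p = 0.0747 by edgeR) and at 0.32 with both covariates (0.424), so it was no longer under 0.05. All adjusted p-values of these 4 genes in both fits were at least 0.996. The difference of Cish was larger in both of these fits than with groups only, and that of Socs2 was larger with the acinar score alone and smaller with Xist added.

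Markers of endothelial cells and macrophages or leukocytes differed in direction between the groups. All 11 endothelial markers had a negative log2 fold change, with a median of -0.28, and 5 of them had an unadjusted p under 0.05, where 1.89% of all genes tested were lower. They summed to 544 to 683 CPM in βIgf1r and to 491 to 542 CPM in βIgf1rKD mice. Of 8 tested macrophage and leukocyte markers 7 had a positive log2 fold change, 1 with an unadjusted p under 0.05, where 2.23% of all genes tested were higher. The 9 listed summed to 109 to 159 CPM in βIgf1r and to 124 to 262 CPM in βIgf1rKD mice. No marker of either list was at 0 in any mouse. Their part in the levels of Cish, Socs2 and Socs3 was not tested.

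Relative to the mean of 11 pan-endocrine genes in the same library, Cish was higher by 1.33 on the log2 scale in βIgf1rKD islets (exact permutation p = 0.0857). Socs2 was higher by 0.91 (exact permutation p = 0.0571), Socs3 by 0.64 (exact permutation p = 0.0571) and Prlr by 0.53 (exact permutation p = 0.171). The groups overlapped for each of them. The reference genes themselves differed little, with a median log2 fold change of -0.07. With Chga alone as reference the differences were 1.23 for Cish and 0.81 for Socs2 (exact permutation p = 0.114 for each). Socs3 was then higher by 0.54 (exact permutation p = 0.2) and Prlr by 0.43 (exact permutation p = 0.257).

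Cish and Socs2 varied together from mouse to mouse. Over the 8 mice the genes had a Pearson r of 0.93 and a Spearman rho of 0.98 in log2 CPM. The exact permutation p over 40320 pairings was 0.00208 for r and 0.000397 for rho, and 0.0125 and 0.00238 after Benjamini-Hochberg adjustment over 6 pairs. Without the 2 mice farthest from the median of Cish (M146 and M152) r was 0.86. It was 0.87 with the group means removed and 0.91 with the trend on Xist removed from both genes. Leaving out mouse M146 alone gave an r of 0.89 with an adjusted exact permutation p of 0.075.

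The receptor followed the same order less closely. For Prlr and Cish r was 0.77 (exact permutation p = 0.0309, adjusted 0.0926) and rho 0.81 (exact permutation p = 0.0218, adjusted 0.0653). This r was 0.65 without the 2 mice farthest from the median of Prlr and 0.40 once the trend on Xist was removed. For Cish and Socs3 r was 0.64 (adjusted exact permutation p = 0.162), and for Prlr and Tph1 it was 0.48 (adjusted exact permutation p = 0.329). For Ghr and Socs2 it was -0.21 and for Prlr and Ehhadh 0.24, both with an adjusted exact permutation p of 0.606.

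**Figure D4:**
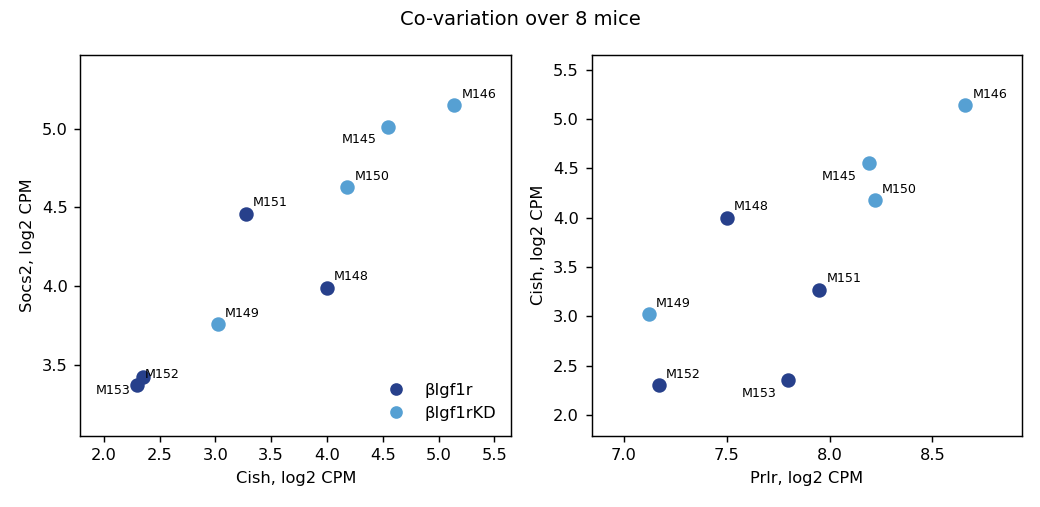
Socs2 against Cish (left) and Cish against Prlr (right) in log2 CPM, with 1 point per mouse labelled by its number. Cish and Socs2 lie near a line over both groups (r = 0.93), whereas the relation of Cish to Prlr is looser (r = 0.77).

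Among 10592 genes with a mean of at least 5 CPM, those most like Prlr over the 8 mice were Rasgrf1 (r = 0.980), D030056L22Rik (r = 0.978) and Serinc5 (r = 0.977). Those most like Cish were Aida (r = 0.955), Mtfmt (r = 0.954) and Ssbp3 (r = 0.944), ahead of Socs2. These correlations were picked as the highest of many and have no test.

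The remainder of the pathway was close to even between the groups. The ligand genes Gh, Prl, Prl2c2, Prl3b1, Prl3d1 and Prl8a2, with Ghrh and its receptor gene Ghrhr, had 0 counts in every mouse, which allows up to 3 counts per library. Of 16 kinases, other STATs and adaptors 14 were tested and none had an unadjusted p under 0.05. Among them Jak2, the kinase of both receptors, had a log2 fold change of -0.03 (SE 0.11) and Stat3 of 0.15 (SE 0.13). None of 15 inhibitors and phosphatases and none of 12 tested receptors of other cytokines had an unadjusted p under 0.05 either. Median log2 fold changes were 0.09, -0.01 and -0.08 in these lists, against 0.01 for all genes tested.

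Other genes known to respond to prolactin, growth hormone or STAT5 were close to even in their median only, with log2 fold changes from -0.23 to 1.36. Of 21 such genes 20 were tested, and none had an unadjusted p under 0.05 in the fit on groups only. A positive log2 fold change was found for 14, and the median was 0.08. The list was not sorted by whether a gene rises or falls in the response. Its signs and median therefore do not measure that response. Matn2 and Lrrc55, both prolactin-responsive in islets and named after their values were seen, came nearest. Matn2 was at 11.7, 13.9, 8.05 and 8.72 CPM in βIgf1r mice and at 14.7, 71.4, 7.49 and 15.7 CPM in βIgf1rKD mice, with an unadjusted p of 0.0502 and an adjusted p of 0.987 by edgeR. Lrrc55 had 53 counts in mouse M146 and 7 to 18 counts in the other 7 mice. Both differences thus lay mostly in mouse M146. Igf1, also named after its values were seen, had a log2 fold change of 0.98 (SE 0.61, unadjusted p = 0.141 by edgeR). With Xist as a covariate it was 1.36, with an unadjusted p of 0.0484 by edgeR. In that fit 4.71% of all genes tested were higher at an unadjusted p under 0.05, and no gene had an adjusted p under 0.05.

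Mouse M146 was also the highest of the 8 mice for Prlr, Cish, Socs2, Tph2 and Stat5b. That is 5 of the 9 tested genes, where it was the highest for 21.2% of all genes tested, and it had the most Tph1 counts as well. For the 20 tested response genes outside the 10 genes it was the highest for 6. Its acinar share of 4.18% was among the lower ones, and the part of this in its levels was not tested.

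Of 26 genes for serotonin synthesis, transport, breakdown and receptors 15 were tested. Htr3a, a subunit of the serotonin-gated ion channel, was the only one with an unadjusted p under 0.05, and 1.89% of all genes tested were lower at that threshold. Its level was 3.09, 3.93, 2.24 and 2.99 CPM in βIgf1r mice and 1.03, 0.428, 0.522 and 2.91 CPM in βIgf1rKD mice. Mice M145, M146 and M149 lay below all βIgf1r mice and mouse M150 lay among them. The log2 fold change was -1.28 (SE 0.54), with an unadjusted p of 0.0398 and an adjusted p of 0.987 by edgeR, and it was -1.75 with Xist as a covariate. Ddc, which completes serotonin synthesis, had a log2 fold change of -0.06 (SE 0.15), and the vesicular transporter Slc18a1 one of -0.20 (SE 0.14).

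Peroxisomal and PPAR genes, the setting of Ehhadh, showed no unadjusted p under 0.05 among 20 tested of 22, and their median log2 fold change was 0.06. Hsd17b4, which encodes the other bifunctional enzyme, had a log2 fold change of 0.05 (SE 0.08).

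**Figure D5:**
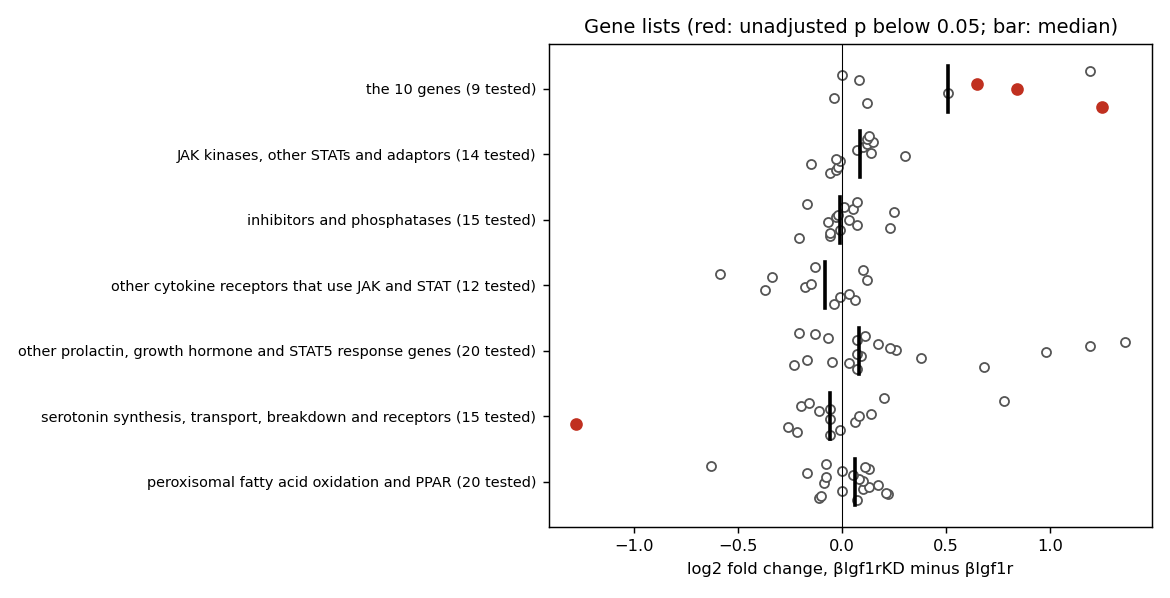
Log2 fold change of every tested gene in each list, βIgf1rKD minus βIgf1r, with the median as a bar and genes with an unadjusted p under 0.05 in red. The red points are Cish, Socs2 and Socs3 above 0 and Htr3a at -1.28, and the medians of the other lists lie between -0.08 and 0.09.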

How the data were processed

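Islet RNA of 8 mice was analysed, 4 per group, each mouse as 1 replicate. The authors deposited an estimated count per Ensembl gene and mouse, without normalization, and the submitters' processing notes name fastp, kallisto and GRCm38 with no version. Such estimates share reads among similar transcripts and were rounded to whole numbers here. Of 53012 identifiers 51906 matched a symbol in GENCODE M21 (GRCm38), and 200 identifiers that share a symbol were kept by identifier. Libraries of a group were not copies of each other (chi-square per degree of freedom of at least 78.6).

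Genes were filtered with edgeR 4.0.16 defaults (minimum count 10, minimum total 15), leaving 15474, scaled by TMM, and tested by edgeR's quasi-likelihood test over all 8 mice in R 4.3.3 with Benjamini-Hochberg adjustment at 0.05. Intervals are 95% intervals. Log2 CPM used a prior count of 2, and RPKM the length of all exons. Alternatives were RLE factors, DESeq2 1.42.0, limma-voom (limma 3.58.1), other count filters, Xist and acinar covariates, TMM without acinar genes, and each mouse left out. The code was tested on simulated data, and plots used matplotlib 3.10.9.

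The 10 genes and all lists were chosen with earlier results of these data known. Of the other pathway lists, marker lists aside, genes with an unadjusted p under 0.05 were named, at most 4 per direction. For Prlr and Cish the 3 most correlated genes were named. No table of proteins was used here, so protein identity was not computed. Some genes of the lists are not reported here by name.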

Additional observations from a re-analysis of the deposited data

How the results depend on the processing

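Genes with an adjusted p under 0.05 numbered 0 in the reported fit, 8 with DESeq2 and 1 with limma-voom, and 0 whenever 1 mouse was left out. Genes with an unadjusted p under 0.05 numbered 637 as reported, 1098 with no filter on low counts, 1143 with Xist and 390 with the acinar score as a covariate, and 383 to 1114 with 1 mouse left out (383 without mouse M148, 402 without M153, 1114 without M152, 960 without M146). With a Y-linked gene score in place of Xist, chosen after seeing the data, the log2 fold change was -0.01 for Prlr, -0.88 for Tph2, 0.55 for Cish (unadjusted p = 0.353 by edgeR) and 0.25 for Socs2 (0.19). Leaving out 1 mouse gave log2 fold changes of 0.29 to 0.74 for Prlr, -0.11 to 0.02 for Ghr and -0.03 to 1.59 for Tph2, so that Ghr (0.02 without mouse M153 or M146) and Tph2 (-0.03 without mouse M146) turned. The Stat5a to Stat5b log2 ratio difference ran from -0.01 (without mouse M149) to 0.17 (without mouse M146, exact permutation p = 0.0286, the smallest such p). Relative to pan-endocrine genes, leaving out 1 mouse gave -0.02 to 0.17 for Ghr, 0.02 to 0.14 for Stat5b, 0.35 to 0.83 for Socs3, -0.41 to 1.26 for Tph2 and 0.10 to 0.30 for Ehhadh, and with Chga alone as reference Ghr was at -0.06 and Stat5b at -0.01. With 1 mouse left out r was 0.89 to 0.97 for Cish and Socs2, 0.63 to 0.87 for Prlr and Cish, and -0.64 to 0.18 for Ghr and Socs2. With the longest transcript as length Prlr was at 24.4, Ghr at 35.9, Stat5a at 3.64 and Socs2 at 4.84 RPKM. The cause of these changes was not tested. No paired analysis was possible because the groups share no mouse numbers. Low counts limit Tph1 and Tph2.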
